A study of Mus musculus with 8 samples.

Results

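*Clca1*, *Fcgbp*, *Tff3*, *Zg16*, *Spdef*, *Agr2*, *Capn9*, *Spink4* and *Atoh1* are 9 genes of the goblet cell other than its mucins. They were taken by symbol as regulators, secretory machinery and secreted products of the lineage, and all 9 were found among the 11554 genes of the crypt table and the 12701 genes of the villus table. In crypts, none of the 9 differed between *Gli1-Ptgs*cKO and Ctrl mice past the spread between libraries by limma-trend. In that test 0 of all 11554 genes had an adjusted p under 0.05. *Agr2* and *Capn9* were the members whose 2 *Gli1-Ptgs*cKO crypt libraries both lay above both Ctrl libraries, by 1.08-fold to 1.995-fold and 1.11-fold to 1.93-fold over the Ctrl mean, an order that 9.73% of all genes had and that *Agr2* lost after a correction for transcript length. *Spink4* and *Tff3* were 3.99-fold and 2.65-fold over the Ctrl mean in one *Gli1-Ptgs*cKO crypt library and close to Ctrl in the other, at 0.93-fold and 0.946-fold. In villi both *Gli1-Ptgs*cKO libraries lay below the Ctrl library for 5 members, among them *Spink4*, *Tff3* and *Zg16*, as they did for 44.2% of all genes. After that correction *Tff3* and *Zg16* overlapped with Ctrl, and the log2 difference of *Spink4* went from -1.15 to -0.18.

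Bulk RNA of crypts and of villi of the small intestine was sequenced from C57BL/6 mice, with 2 libraries per genotype and tissue, to ask how loss of cyclooxygenase in mesenchymal cells affects the epithelium. In *Gli1-Ptgs*cKO mice (cKO), tamoxifen-induced Cre under the *Gli1* promoter deletes the floxed genes *Ptgs1* and *Ptgs2*, which encode COX1 and COX2, so the cells that lose both genes are mesenchymal cells that express Gli1 and not the goblet cells measured here. Both genotypes were sampled a month after tamoxifen. The labels describe Ctrl as genotype WT, from Gli1-CreERT2; Rosa26-tdTomato mice, whereas the study's legend gives them as floxed for both genes and lacking Cre, so whether Ctrl carried Cre or the floxed alleles is not settled here. The methods state 2 biological replicates and do not say how many mice each library holds.

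Goblet cells arise in the crypt from secretory progenitors that escape Notch signalling and express the basic helix-loop-helix factor *Atoh1*, which is required for all secretory lineages. *Spdef*, an Ets-family factor acting downstream of *Atoh1*, promotes maturation of goblet and Paneth cells. Mature goblet cells migrate up the villus and release mucus, a network of the gel-forming mucin *Muc2* together with other secreted proteins that shape, crosslink or protect it.

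Promoter sequences are shown for the regulators *Atoh1* and *Spdef* and for *Agr2* and *Capn9*, the members above Ctrl in both cKO crypt libraries. They are the 250 bases before the RefSeq transcription start (GRCm38.p6), at chr6:64728875-64729124 on the plus strand for *Atoh1*, chr17:27728952-27729201 on the minus strand for *Spdef*, chr12:35992675-35992924 on the plus strand for *Agr2* and chr8:124575861-124576110 on the plus strand for *Capn9*. Each reads 5′ to 3′ on the gene's strand, and capitals mark the E-box CANNTG, the core bound by basic helix-loop-helix factors, and GGAT, the Ets core as *Spdef* prefers it, searched on both strands.
Atoh1: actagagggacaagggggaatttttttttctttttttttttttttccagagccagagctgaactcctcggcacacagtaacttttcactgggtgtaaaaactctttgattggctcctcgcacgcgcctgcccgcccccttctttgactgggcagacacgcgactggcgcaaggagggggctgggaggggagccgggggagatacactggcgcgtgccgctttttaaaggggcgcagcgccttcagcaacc
Spdef: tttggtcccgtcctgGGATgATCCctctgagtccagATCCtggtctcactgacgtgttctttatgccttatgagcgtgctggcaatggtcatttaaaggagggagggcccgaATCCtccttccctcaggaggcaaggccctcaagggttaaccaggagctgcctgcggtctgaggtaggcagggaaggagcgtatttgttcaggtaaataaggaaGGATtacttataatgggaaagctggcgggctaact
Agr2: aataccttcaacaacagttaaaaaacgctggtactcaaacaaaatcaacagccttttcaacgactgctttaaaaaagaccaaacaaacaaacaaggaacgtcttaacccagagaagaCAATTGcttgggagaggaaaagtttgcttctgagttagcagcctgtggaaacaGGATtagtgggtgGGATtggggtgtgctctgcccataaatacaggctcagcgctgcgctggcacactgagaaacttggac
Capn9: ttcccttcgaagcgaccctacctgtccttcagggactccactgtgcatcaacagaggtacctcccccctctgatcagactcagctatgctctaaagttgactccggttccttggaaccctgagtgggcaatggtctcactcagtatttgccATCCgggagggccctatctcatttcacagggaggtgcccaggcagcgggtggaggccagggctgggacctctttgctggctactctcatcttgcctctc
The *Spdef* window held 5 GGAT cores and no CANNTG, and the *Agr2* window held 2 GGAT cores and 1 CANNTG. The *Capn9* window held 1 GGAT core, read as ATCC on the printed strand and lying within the longer form CCGGAT, and the *Atoh1* window held none of these letters. Among 32851 promoters of the same length, CANNTG was present in 66.2%, its form CAGCTG in 13%, GGAT in 74.1% and CCGGAT in 4.94%, so these matches describe the sequence and do not mark sites. The *Fcgbp* window held 3 CANNTG, of which 1 was CAGCTG, and 2 GGAT cores. Promoters were matched by symbol for 5 of the 9 members, and those of *Clca1*, *Tff3*, *Zg16* and *Spink4* were not used here.

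Reads on listed genes lay between 16853017 and 21121714 per crypt library and between 13477600 and 15751024 per villus library, and the members' values rested on 94 or more reads each. The deposited values are normalised counts, that is, reads per gene divided by a size factor per library. The 2 Ctrl villus columns were identical for all genes and were counted as 1 library, so the villi have no replicate in Ctrl and no test. The deleted gene *Ptgs1* overlapped between genotypes in crypts, with 365 and 164 normalised counts in Ctrl and 178 and 199 in cKO, and *Ptgs2* was not listed. The labels call the material epithelial cells, yet the fibroblast gene *Dcn* had 3458 to 5819 normalised counts in crypts. The libraries also differed by transcript length. cKO crypt replicate 1 had a Spearman correlation of -0.657 between transcript length and the log2 difference from the Ctrl mean across 11546 genes, replicate 2 had 0.311, and the villus libraries had 0.543 and 0.507 across 12692 genes, with Ctrl shared within each tissue. Values are therefore given as deposited and after subtraction of a lowess curve over transcript length.

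**Figure D1:**
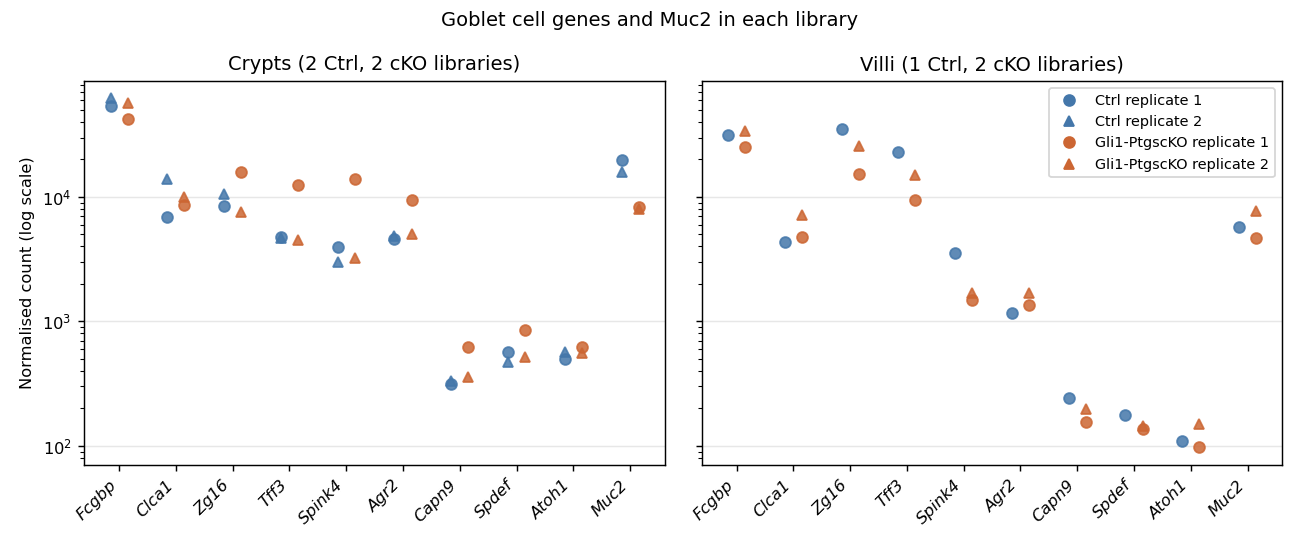
Normalised count of the 9 goblet cell genes and *Muc2* in each library (y axis, log scale; blue, Ctrl; orange, cKO; circles, replicate 1; triangles, replicate 2), with crypts on the left and villi on the right. *Spink4*, *Tff3* and *Agr2* stand highest in cKO crypt replicate 1, whereas replicate 2 lies beside the Ctrl libraries.

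The regulators were tested in crypts to ask whether the genotypes differed at the top of the lineage. *Atoh1* (chromosome 6, 64729125 to 64731245, plus strand, GRCm38) had 499 and 563 normalised counts in the Ctrl crypt libraries and 627 and 555 in cKO. The groups overlapped, since cKO replicate 2 lay between both Ctrl libraries. The log2 fold change was 0.15 ± 0.26 (SE, 95% interval -0.48 to 0.79), with an adjusted p of 1.00 by limma-trend, and 0.04 after the length correction. *Spdef* (chromosome 17, 27714352 to 27728955, minus strand) had 569 and 469 normalised counts in Ctrl and 860 and 519 in cKO. Again 1 library, cKO replicate 1, stood above the other 3, and the groups overlapped. The log2 fold change of *Spdef* was 0.37 ± 0.33 (95% interval -0.42 to 1.16, limma-trend adjusted p of 1.00), and it was 0.01 with replicate 2 as the only cKO library. The intervals do not leave out a change of *Spdef* above 1 on the log2 scale, whereas for *Atoh1* they end below it.

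*Agr2* and *Capn9* kept the same order in all 4 crypt libraries. *Agr2* (chromosome 12, 35992907 to 36004087, plus strand) encodes a protein disulfide isomerase of the endoplasmic reticulum that is needed to make *Muc2*. It had 4603 and 4811 normalised counts in Ctrl and 9393 and 5075 in cKO, so both cKO libraries lay above Ctrl, with replicate 2 above it by little. The log2 fold change was 0.55 ± 0.34 (95% interval -0.26 to 1.36, limma-trend adjusted p of 1.00). After the length correction the log2 difference of *Agr2* was 0.17 and the groups overlapped. *Capn9* (chromosome 8, 124576111 to 124618731, plus strand) encodes calpain-9, a calcium-dependent protease of the digestive tract that is known from gastric as well as goblet cells. Its normalised counts were 314 and 329 in Ctrl and 621 and 358 in cKO, also without overlap. The log2 fold change of *Capn9* was 0.55 ± 0.35 (95% interval -0.29 to 1.39, limma-trend adjusted p of 1.00), and at 0.46 after the length correction both cKO libraries were still above both Ctrl libraries. Without cKO replicate 1 the log2 fold changes were 0.11 for *Agr2* and 0.15 for *Capn9*.

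Markers of gastric epithelium were high in the same crypt libraries. The study had already reported several of them as upregulated from these crypt data, among them *Pgc*, *Gkn2* and *Anxa10*. The list was thus not chosen independently of the data. Its counts beside all genes are a description and not a test. Of 17 gastric genes 16 were listed, and 15 were higher in both cKO libraries, beside 9.73% of all genes. By limma-trend 12 passed the study's threshold, an unadjusted p under 0.01 with a log2 fold change over 1, beside 0.173% of all genes, and 0 had an adjusted p under 0.05. The list median was 1.44. Their summed level was 1736 and 2054 RPM (reads scaled to 1000000 per library over the genes of a table) in Ctrl and 6163 and 4084 in cKO. The most abundant, *Gkn2*, *Gkn1*, *Tff2* and *Pgc*, had log2 fold changes of 1.16 to 1.70, and *Tff1* was not listed. Their part in the levels of *Agr2*, *Capn9* and *Spdef*, which gastric cells also express, was not tested.

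The small secreted products were high in 1 cKO crypt library. *Spink4* (chromosome 4, 40920052 to 40931395, plus strand), a Kazal-type protease inhibitor of goblet cell granules, had 3968 and 2986 normalised counts in Ctrl and 13874 and 3234 in cKO. *Tff3* (chromosome 17, 31125306 to 31129646, minus strand), the intestinal trefoil peptide that aids epithelial repair, had 4725 and 4714 in Ctrl and 12503 and 4466 in cKO. *Zg16* (chromosome 7, 127050156 to 127087328, minus strand), a lectin that binds bacteria in mucus, had 8519 and 10650 in Ctrl and 15744 and 7604 in cKO. In each of these genes replicate 1 was the highest of the 4 libraries, and for *Tff3* and *Zg16* replicate 2 was the lowest, so the groups overlapped. The log2 fold changes were 0.96 ± 0.63 for *Spink4*, 0.66 ± 0.47 for *Tff3* and 0.20 ± 0.39 for *Zg16*, each with an adjusted p of 1.00 by limma-trend. Without replicate 1 they were -0.09, -0.08 and -0.32. After the length correction the values were 0.31 for *Spink4*, with both cKO libraries above Ctrl, 0.08 for *Tff3* and -0.26 for *Zg16*. *Zg16* overlaps 2 annotated genes, *Gm44939* and *Gm22747*, neither of which was listed, and the strand setting of the counting is not given in the sources used here.

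These 3 transcripts are the shortest of the 9, at 397 bases for *Spink4*, 493 for *Tff3* and 723 for *Zg16*, followed by *Agr2* at 907. Their high values in cKO crypt replicate 1 stood beside high values of short transcripts in general, where the shortest of 10 length groups had a median log2 difference of 0.84 and the longest -0.65. *Capn9*, at 2330 bases, and *Spdef*, at 1921, had log2 differences of 0.95 and 0.73 in that library, and 0.68 and 0.33 after the length correction.

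**Figure D2:**
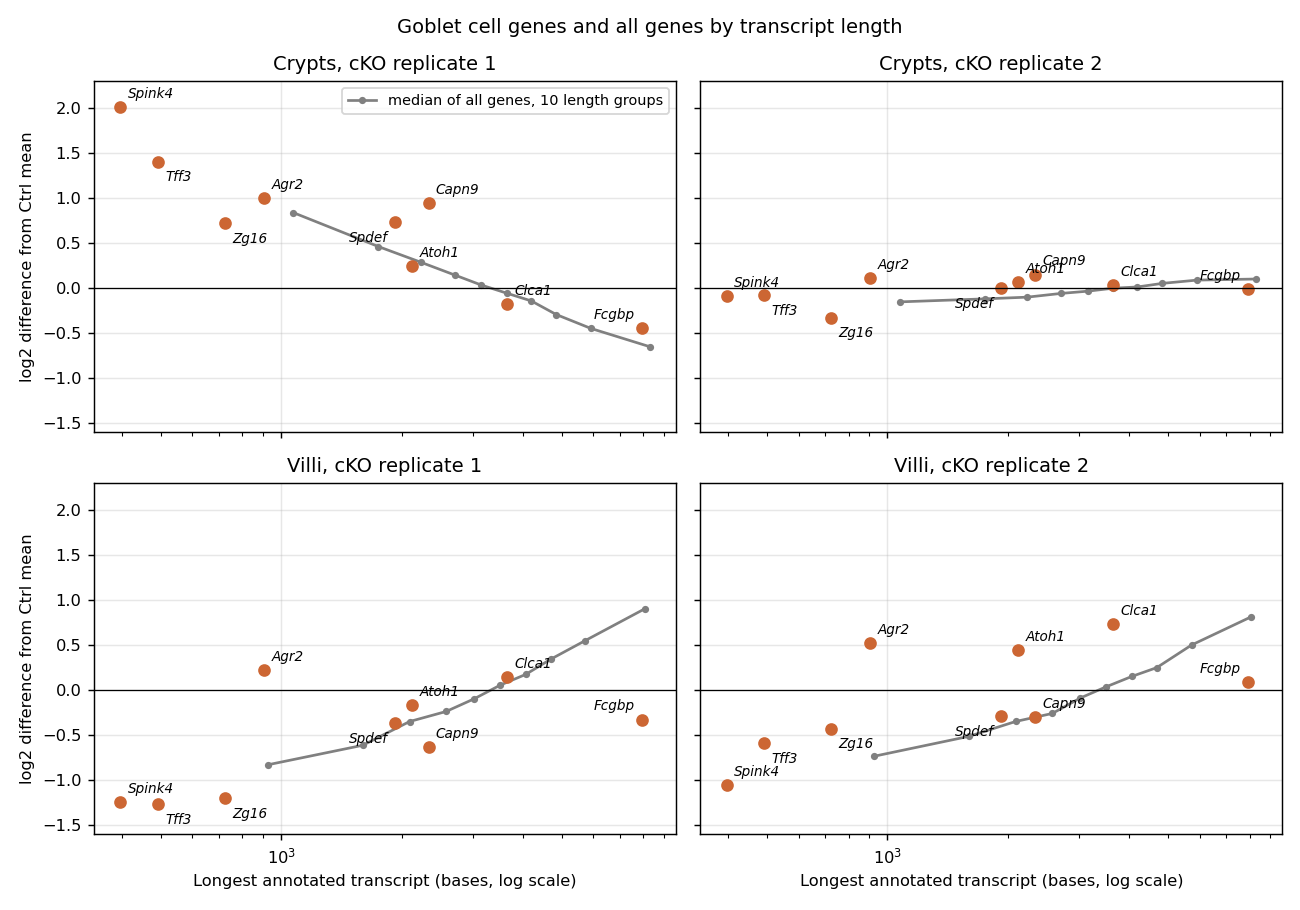
Log2 difference of each cKO library from the Ctrl mean (y axis) against the longest annotated transcript (x axis, bases, log scale), with the 9 goblet cell genes as orange points and the medians of all genes in 10 length groups as the grey line. In crypt replicate 1 the line falls from 0.84 to -0.65, and in the villi it climbs from -0.83 to 0.90 in replicate 1 and from -0.74 to 0.81 in replicate 2.

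For *Fcgbp* and *Clca1*, the longest transcripts among the members at 7928 and 3655 bases, cKO replicate 1 was not the highest crypt library. Among all genes *Clca1* fell in length group 6 of 10, whose median log2 difference in that library was -0.06. *Fcgbp* (chromosome 7, 28071236 to 28120862, plus strand), a mucus protein with many von Willebrand D domains that is bound to *Muc2*, had 53673 and 61791 normalised counts in Ctrl crypts and 42519 and 57112 in cKO. *Clca1* (chromosome 3, 145003817 to 145032776, minus strand), a metalloprotease that cleaves *Muc2* in mucus, had 6937 and 13865 in Ctrl and 8691 and 10021 in cKO. For both genes the groups overlapped, and the Ctrl libraries of *Clca1* differed more from each other than the cKO libraries did. The log2 fold changes were -0.22 ± 0.39 for *Fcgbp* (95% interval -1.14 to 0.69) and -0.07 ± 0.38 for *Clca1* (95% interval -0.97 to 0.83), with adjusted p of 1.00 by limma-trend. After the length correction they were 0.02 and -0.05. *Clca1* turned to 0.43 without Ctrl replicate 2 and to 0.03 without cKO replicate 1.

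**Figure D3:**
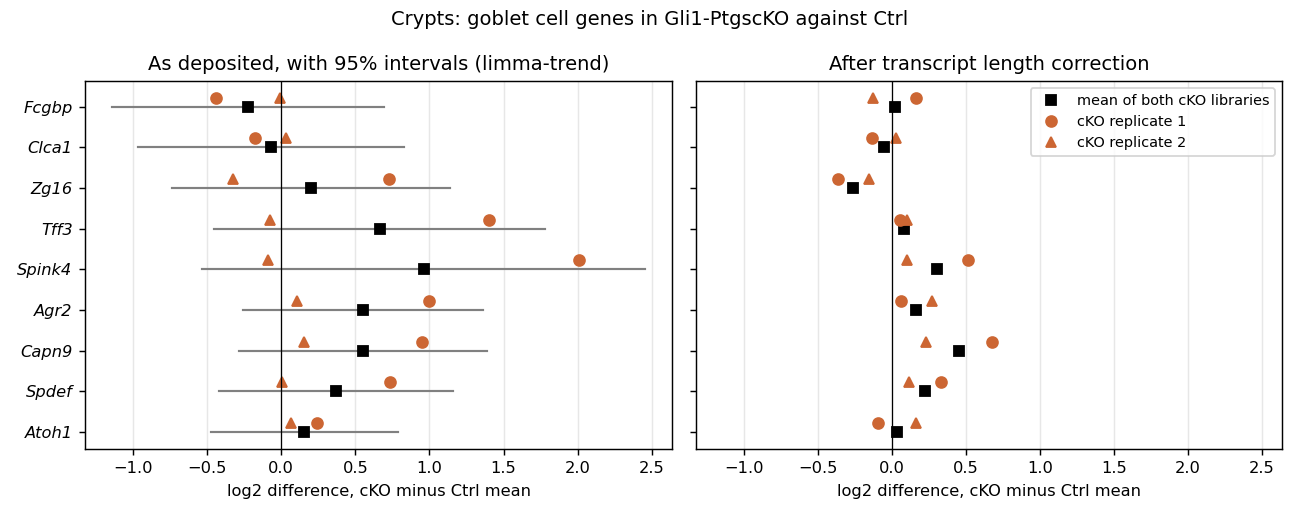
Crypt log2 difference of cKO from the Ctrl mean for each goblet cell gene (x axis; orange circle and triangle, cKO replicates 1 and 2; black square, their mean; grey line, 95% interval from limma-trend), as deposited on the left and after the length correction on the right. All 9 intervals cross 0, and the correction brings the replicate 1 values of *Spink4* from 2.01 to 0.51 and of *Tff3* from 1.41 to 0.05.

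By count, 0 of the 9 members had an adjusted p under 0.05 by limma-trend in crypts, beside 0 of all 11554 genes (0%), and 0 members had an unadjusted p under 0.05, beside 73 genes (0.632%). By edgeR on the recovered reads 0 members had an adjusted p under 0.05, beside 0 of all genes. DESeq2 called 0 members and 11 genes at that level. By limma-trend no member passed the study's threshold, which 20 genes passed upward (0.173%) and 1 downward (0.00866%), the latter being *Muc2*. By DESeq2, the study's tool, 1 member passed it, *Spink4*, with a log2 fold change of 1.30 and an adjusted p of 1.00. How many of all genes passed that threshold by DESeq2 was not counted. *Muc2* had 19796 and 15809 normalised counts in Ctrl and 8235 and 7934 in cKO crypts (log2 fold change -1.13 ± 0.28). Without cKO replicate 2, 1 cKO library was left, and the members' log2 fold changes ran from -0.44 for *Fcgbp* to 2.01 for *Spink4*. A lone library has no spread of its own, so no p-value is given for that fit.

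Both cKO crypt libraries were above both Ctrl libraries for 2 members, *Agr2* and *Capn9*, beside 9.73% of all genes, and below them for 0 members, beside 11.3%. After the length correction 2 members, *Capn9* and *Spink4*, were above, beside 13.3%, and 0 below, beside 15%. The median log2 fold change of the members was 0.37 as deposited and 0.08 after the correction, with -0.01 over all genes in both cases. The members' share of reads on genes in both tables was, in crypts, 0.457% and 0.528% in Ctrl and 0.512% and 0.473% in cKO, so their summed RNA overlapped. *Fcgbp* was the largest part of that sum, at 2930 and 3255 RPM over those genes in Ctrl and 2077 and 3039 in cKO. The sum therefore says little of the other members. In bulk RNA, fewer goblet cells and less RNA per goblet cell cannot be told apart.

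Set against *Muc2* within each library, every member was higher in both cKO crypt libraries, and so were 91.1% of all genes. The ratio of *Fcgbp* to *Muc2* was 2.71 and 3.91 in Ctrl crypts and 5.16 and 7.198 in cKO, and that of *Atoh1* was 0.025 and 0.036 in Ctrl and 0.076 and 0.070 in cKO. In villi the ratio was higher in both cKO libraries for 3 members (*Clca1*, *Agr2* and *Atoh1*), beside 30.4% of genes, and lower for 6, beside 37.1%. The crypt ratios all share the *Muc2* counts, which were lower in both cKO libraries.

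In villi the same genes were compared with 1 Ctrl library, so the differences are values without a test. *Spink4* had 3535 normalised counts in Ctrl and 1496 and 1705 in cKO. *Tff3* had 22817 in Ctrl and 9481 and 15135 in cKO, and *Zg16* had 34823 in Ctrl and 15206 and 25878. For all 3 the cKO libraries lay below Ctrl, the reverse of crypt replicate 1. The log2 differences were -1.15 for *Spink4*, -0.93 for *Tff3* and -0.81 for *Zg16*, and -0.18, -0.02 and -0.02 after the length correction, when *Tff3* and *Zg16* overlapped with Ctrl. In the villi short transcripts were low in cKO, with medians of -0.83 and -0.74 in the shortest length group of replicates 1 and 2.

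*Agr2* was above Ctrl in the villi too, with 1169 normalised counts in Ctrl and 1364 and 1683 in cKO. Its log2 difference was 0.37 as deposited and 1.10 after the length correction, so it lay above Ctrl in both cKO villus libraries either way. *Clca1* had 4329 in Ctrl and 4769 and 7184 in cKO (0.44, and 0.36 corrected). *Fcgbp* had 31683 in Ctrl and 25237 and 33719 in cKO, which overlap (-0.12). After the correction *Fcgbp* was at -0.92 with both cKO libraries below Ctrl, although by library size alone it was at 0.31 and above Ctrl.

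The regulators and *Capn9* were the lowest members in villi. *Atoh1* had 109 normalised counts in Ctrl and 97.1 and 149 in cKO, which overlap. *Spdef* had 177 in Ctrl and 137 and 145 in cKO, a log2 difference of -0.33 that turned to 0.06 after the length correction and to 0.10 by library size alone. *Capn9* had 243 in Ctrl and 157 and 197 in cKO, below Ctrl, whereas in crypts both cKO libraries were above. Its villus log2 difference was -0.47 as deposited, -0.20 after the length correction and -0.04 by library size alone, when the groups overlapped. Among the 11227 genes in both tables, 5.99% were above Ctrl in crypts and below it in villi in every library, and the difference between the tissues was not tested.

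Over the members, 2 were above Ctrl in both cKO villus libraries, beside 43.7% of all genes, and 5 (*Tff3*, *Zg16*, *Spdef*, *Capn9* and *Spink4*) were below, beside 44.2%, with a median log2 difference of -0.33 against -0.01 over all genes. After the length correction 4 members were above, beside 41%, and 3 below, beside 43.7%, with a median of -0.02. Scaling by library size alone shifted the median of all genes in villi to 0.42. On that scale 5 members were above Ctrl, beside 62.6%, and 3 (*Tff3*, *Zg16* and *Spink4*) were below, beside 24.3%, and the members' median was 0.10. The members' share of reads in villi was 0.587% in Ctrl and 0.483% and 0.662% in cKO.

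The levels of the members in crypts and villi were set side by side in RPM over the 11227 genes in both tables. No test was made, since the tables were normalised separately. The levels were not corrected for transcript length, by which the cKO villus libraries differed from the Ctrl villus library (Spearman correlations of 0.543 and 0.507). The part of transcript length in the differences between the tissues was not tested. *Tff3* and *Zg16* stood higher in the Ctrl villus library than in Ctrl crypts, 5.35-fold and 4.03-fold over the crypt mean. *Tff3* had 258 and 248 RPM in Ctrl crypts and 1355 in Ctrl villi, and *Zg16* had 465 and 561 in Ctrl crypts and 2068 in Ctrl villi. The regulators and the foldase were the reverse: Ctrl crypts held 4.40 times the Ctrl villus level of *Atoh1*, 3.64 times that of *Agr2* and 2.65 times that of *Spdef*. *Atoh1* had 27.3 and 29.6 RPM in Ctrl crypts and 6.47 in Ctrl villi. *Clca1* was 2.16-fold and *Fcgbp* 1.64-fold higher in Ctrl crypts, with the villus level below both crypt libraries. *Spink4*, at 217 and 157 in Ctrl crypts and 210 in Ctrl villi, did not separate the tissues, and *Capn9* was 1.19-fold higher in Ctrl crypts.

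The order among tissues was the same in cKO for *Tff3*, *Zg16*, *Atoh1*, *Spdef*, *Agr2* and *Capn9*. *Tff3* had 611 and 238 RPM in cKO crypts and 790 and 1167 in cKO villi, so the tissues did not overlap although crypt replicate 1 came close. *Atoh1*, *Spdef*, *Agr2* and *Capn9* were higher in both cKO crypt libraries than in both villus libraries. *Spink4*, which did not separate the tissues in Ctrl, had 678 and 172 in cKO crypts and 125 and 131 in cKO villi, without overlap. *Clca1*, with 425 and 533 in cKO crypts and 397 and 554 in villi, overlapped, as did *Fcgbp*.

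**Figure D4:**
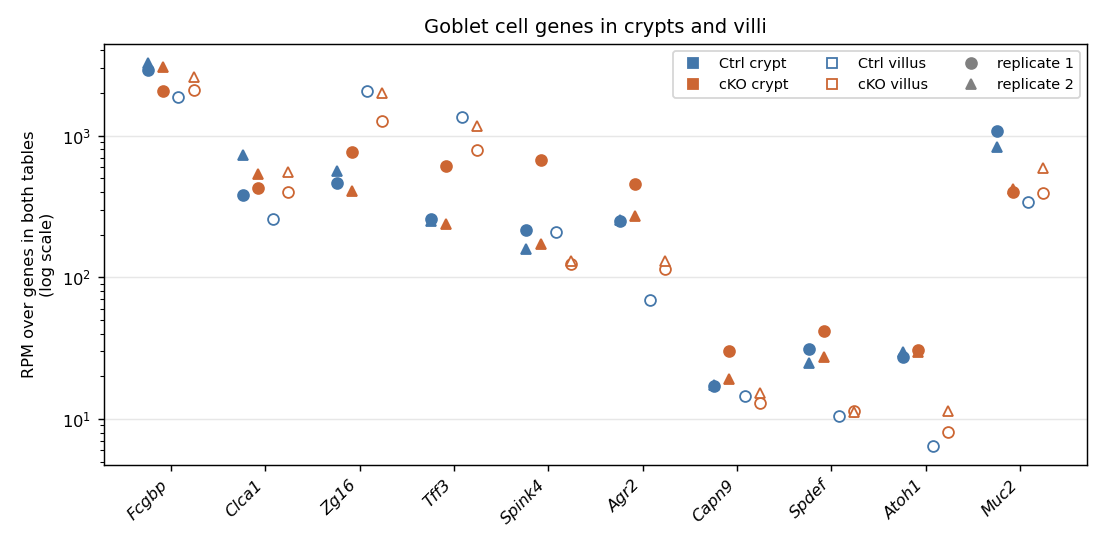
RPM over the genes in both tables (y axis, log scale) for the 9 goblet cell genes and *Muc2* in crypts (filled) and villi (open) of Ctrl (blue) and cKO (orange) mice, with circles for replicate 1 and triangles for replicate 2. *Tff3* and *Zg16* are higher in villi than in crypts, while *Atoh1*, *Agr2* and *Spdef* are higher in crypts. Levels are not corrected for transcript length.

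Per kilobase of the longest transcript, *Zg16* was the most abundant member in Ctrl crypts, with a mean of 710 RPM per kilobase. *Tff3* (513), *Spink4* (471) and *Fcgbp* (390) followed, and neighbours in that run overlapped between the 2 libraries. *Agr2* (278) and *Clca1* (152) were separate from their neighbours. *Spdef* (14.5) and *Atoh1* (13.4) did not differ beyond their spread, and *Capn9* was lowest at 7.40. In the Ctrl villus library the order began with *Zg16* (2860) and *Tff3* (2748) and ended with *Atoh1* (3.05). Secreted products were thus above the regulators in both tissues on this per-length scale.

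Among 20 other goblet cell genes, 17 were listed in crypts (*Retnlb*, *B3gnt6* and *Best2* were not), and 3 were above and 0 below Ctrl in both cKO libraries, beside 9.73% and 11.3% of all genes, with a median log2 fold change of 0.17 as deposited and 0.07 after the length correction. The most abundant, *Ang4*, an antimicrobial ribonuclease also made by Paneth cells, had 27700 and 21517 normalised counts in Ctrl and 28240 and 22450 in cKO. *Nlrp6*, an inflammasome receptor linked to mucus release, had 6913 and 7390 in Ctrl and 6486 and 7274 in cKO. None had an adjusted p under 0.05 by limma-trend, beside 0 of all genes. In villi 18 were listed, 6 above and 9 below Ctrl, beside 43.7% and 44.2% of all genes, with a median of -0.21 and 0.10 after the correction.

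The 15 other regulators of the secretory lineage were all listed in crypts, where 3 were above and 0 below Ctrl in both cKO libraries, against the same 9.73% and 11.3%, with a median log2 fold change of 0.11. *Klf4*, a zinc finger factor of terminal goblet cell differentiation, had 1678 and 1949 normalised counts in Ctrl and 2032 and 2376 in cKO (log2 fold change 0.28 ± 0.24, limma-trend adjusted p of 1.00). *Xbp1*, the unfolded protein response factor that secretory cells need, had 4935 and 4720 in Ctrl and 5648 and 4542 in cKO, which overlap. *Hes1*, the Notch target that represses *Atoh1*, had 1823 and 1726 in Ctrl and 2796 and 1485 in cKO, highest in the library in which *Spdef* was highest. In villi 14 were listed, 5 above and 5 below Ctrl, against 43.7% and 44.2%.

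Markers of Paneth cells, the other granular cell of the crypt, were also highest in cKO crypt replicate 1. Their summed level over 8 listed genes was 24883 and 20534 RPM in Ctrl and 36963 and 20584 in cKO. Of the 8, 0 were above both Ctrl libraries in both cKO libraries. The median log2 fold change of the Paneth markers was 0.33 as deposited and -0.04 after the length correction. The part of Paneth cells in the *Spdef* and *Spink4* levels of cKO crypt replicate 1 was not tested. Stem cell markers summed to between 5600 and 5841 RPM in Ctrl and between 5067 and 5236 in cKO. Gene by gene, 0 of the 8 listed were higher and 0 lower in both cKO libraries. Their median log2 fold change was -0.09 as deposited, beside -0.01 over all genes on that scale. Library size alone, the scale of the summed RPM, shifted the median of all genes in crypts to -0.08.

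Likeness of pattern was measured as the root mean square difference of log2(RPM + 1), centred on Ctrl within each tissue, over the 7 libraries and 8346 genes with at least 100 mean normalised counts in both tables. The nearest genes were *Rcan1*, *Pwp2* and *Slc27a1* for *Atoh1*, *Ostc*, *Bin1* and *Nudt2* for *Spdef*, *Leng9*, *Nob1* and *Klhdc4* for *Capn9*, and *Cutc*, *Med10* and *Slc7a6os* for *Agr2*, at differences between 0.058 and 0.138. The values were not corrected for transcript length, and the part of length in this likeness was not tested. By the centring the lone Ctrl villus library had the same value for every gene and added nothing to the differences. No member was among the 3 nearest genes of another. *Spdef*, at rank 80 from *Capn9* with a difference of 0.16, was the closest member to any other by rank.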

How the data were processed

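Bulk RNA-seq covered small intestinal crypts and villi of Ctrl and *Gli1-Ptgs*cKO (cKO) mice. Reads were aligned by the authors to mm10 with STAR, counted per gene and analysed with DESeq2. The methods and the labels name different RNA and library kits. The counting program, annotation and strand setting are not given in the sources used here. The deposited signal is a normalised count, in which the reads of a gene are scaled by a DESeq2 size factor for that library. Columns with the authors' own fold changes and p-values were not used. The spacing of values gave back the reads, of which 100% were whole within 1e-06 of a read. Genes of low level are not in the tables (smallest mean 48.4 normalised counts in crypts and 8.73 in villi).

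Crypt groups were compared with limma-trend (R 4.3.3, limma version 3.58.1), fitted over all genes with a mean of at least 1 after taking log2(value + 1), without a block, with Benjamini-Hochberg adjustment. With 2 libraries against 2, an exact permutation test cannot give a two-sided p under 0.333. P-values measure the spread between these libraries. The length correction subtracted from each library a lowess curve (span 0.3) over log2 length of the longest GENCODE M21 transcript. Alternatives were edgeR 4.0.16 and DESeq2 1.42.0 on the recovered reads, a replicate block, other scalings, filters and pseudocounts, and leaving out each library. The fits were tested on simulated data. Figures used matplotlib 3.10.9.

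The members and lists were chosen with earlier results of these data known. Named were all 9 members, *Muc2*, the deleted genes, at most 4 genes per other list by mean level, and the 3 genes most alike in pattern to *Atoh1*, *Spdef*, *Capn9* and *Agr2*. Of the other marker lists, enterocyte genes (10 listed) had a crypt median log2 fold change of 0.06, enteroendocrine genes (8) 0.28, tuft cell genes (5 of 7) 0.29, mesenchymal genes (6 of 8) -0.05 and immune genes (8 of 9) -0.33.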

Additional observations from a re-analysis of the deposited data

Results flagged for a closer look

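*Capn9* moved in opposite directions in the tissues in every library. Of the 11227 genes in both tables, 5.99% had that order, above Ctrl in crypts and below it in villi. Its log2 fold change between *Gli1-Ptgs*cKO (cKO) and Ctrl was 0.55 in crypts, where both cKO libraries were above both Ctrl libraries, and its log2 difference was -0.47 in villi, where both were below the single Ctrl library. The difference between the tissues was not tested, because the villi have 1 Ctrl library. The crypt value did not pass the limma-trend test and was 0.15 without cKO replicate 1. The villus value was -0.20 after the length correction, and -0.04 with overlapping libraries by library size alone. Both cKO villus libraries were below Ctrl for 44.2% of all genes. *Spink4*, *Tff3*, *Zg16* and *Spdef* also had positive log2 values in crypts and negative ones in villi as deposited.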

How the results depend on the processing

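The crypt test rests on 2 libraries per genotype and the villi on 1 Ctrl library, and cKO crypt replicate 1 lay farther from the Ctrl mean than replicate 2 for all 9 members. Over the 9 members, the crypt count with an adjusted p under 0.05 was 0 under every alternative that kept all 4 libraries. These were the replicate block, edgeR, DESeq2, library size, TMM, filters, pseudocount and length correction. They called 0 of all genes too, except the replicate block with 34 genes and DESeq2 with 11. The member count of 0 therefore says little of the members alone.

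With the replicate block, 2 members (*Spink4* and *Tff3*) had an unadjusted p under 0.05 by limma-trend, beside 368 of all genes. Their adjusted p were 0.32 and 1.00, and 34 of all genes had an adjusted p under 0.05 in that fit. The block was used only as an alternative, because the numbers are not stated to mark a litter or day, and same-numbered libraries deviated together with a correlation of 0.247. DESeq2 put 1 member, *Spink4* (log2 fold change 1.30), past the study's threshold, and 2 at an unadjusted p under 0.05. At that unadjusted p DESeq2 had 227 of all genes.

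Leaving out each crypt library in turn gave 0 to 5 members with an adjusted p under 0.05, 0 to 2 past the study's threshold upward, 0 to 6 with an unadjusted p under 0.05, 2 to 7 higher and 0 to 2 lower in every remaining cKO library. The upper values came without cKO replicate 2, except for the 2 lower, which came without Ctrl replicate 1 or cKO replicate 1. Crypt signs reversed under the length correction, with or without the block, for *Fcgbp* (0.019) and *Zg16* (-0.26). Leaving out each crypt library in turn gave ranges that crossed 0 for *Clca1* (-0.571 to 0.428), *Tff3* (-0.079 to 1.41), *Zg16* (-0.325 to 0.725) and *Spink4* (-0.090 to 2.01). The values below 0 of the last 3, and a *Clca1* value of 0.031, came without cKO replicate 1, and the highest *Clca1* value without Ctrl replicate 2.

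In villi the length correction gave 4 members higher, 3 lower and a median of -0.023, against 2, 5 and -0.33 as deposited. Library size alone gave 5 higher, 3 lower and a median of 0.10. With either cKO villus library left out, 1 cKO library faced 1 Ctrl library, so each gene had to lie above or below Ctrl. Counts are therefore not given. The members' median was -0.29 without cKO replicate 1 and -0.37 without cKO replicate 2. Why these values moved was not tested.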
